A study of Rattus norvegicus with 2 samples.

Results

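Transcripts of 10 antioxidant enzymes were followed in cells of the rat optic nerve, in 1 library from WT rats and 1 from Nuc1 rats. The genes were taken by symbol from a fixed list of names, and all 10 were found among the 25399 genes of the files: Sod1 (ENSRNOG00000002115), Sod3 (ENSRNOG00000003869), Cat (ENSRNOG00000008364), Gpx1 (ENSRNOG00000048812), Gpx4 (ENSRNOG00000013604), Gpx3 (ENSRNOG00000052564), Prdx1 (ENSRNOG00000017194), Prdx6 (ENSRNOG00000002896), Gstm1 (ENSRNOG00000029726) and Nqo1 (ENSRNOG00000012772). The WT animals were Sprague Dawley rats, and the Nuc1 animals carry a spontaneous mutation in Cryba1, the gene of βA3/A1-crystallin, in every cell of the body. The labels give an age of 7 days after birth for both libraries and name no treatment, and the series title calls the material a mixed cell culture. The study's culture methods describe younger pups, and how many animals gave each library is not given in the sources used here. The comparison asks how the transcripts of optic nerve cells, astrocytes above all, differ when Cryba1 is mutated. Cryba1 itself (ENSRNOG00000008700) was read with 0 UMIs in either library, all barcodes counted, so the genotype labels could not be checked from that gene.

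These enzymes act one after another on reactive oxygen. Superoxide dismutases turn superoxide into hydrogen peroxide, and catalase, glutathione peroxidases and peroxiredoxins then reduce peroxides to water or alcohols. Glutathione S-transferases couple glutathione to reactive compounds, and NQO1 reduces quinones without forming radicals. Several of the genes are known targets of the transcription factor NRF2, which binds antioxidant response elements, and astrocytes are known as a main store of glutathione in nervous tissue.

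RefSeq promoter windows on the rat assembly GRCr8, each from 250 bases before to 50 bases after a start site, were matched for 8 of the 10 genes. They were searched on both strands for the antioxidant response element core (TGACNNNGC), the CCAAT box (CCAAT) and the GC box (GGGCGG), which 12.1%, 37.5% and 33.1% of all 33469 windows hold. Only the window of Prdx1 among the 8 genes held the element core, as GCTGAGTCA on the plus strand, which reads as the core on the minus strand and begins 135 bases before the start. It overlapped no match of the other motifs. The 250 bases before the start are shown, 5′ to 3′ on the strand of the gene, for Prdx1 (chr5:135383656-135383905, plus strand), for the first of 3 windows of Gpx4 (chr7:10303630-10303879, minus strand) and for Gstm1 (chr2:198343384-198343633, minus strand). Prdx1 is shown for that match, Gpx4 because it was higher in Nuc1 cells of every cluster and Gstm1 because its ratio between the libraries over all cells was the largest of the 10. Capitals mark matches of the motifs on either strand, and a match is a description of the letters and not a measured binding site.
Prdx1: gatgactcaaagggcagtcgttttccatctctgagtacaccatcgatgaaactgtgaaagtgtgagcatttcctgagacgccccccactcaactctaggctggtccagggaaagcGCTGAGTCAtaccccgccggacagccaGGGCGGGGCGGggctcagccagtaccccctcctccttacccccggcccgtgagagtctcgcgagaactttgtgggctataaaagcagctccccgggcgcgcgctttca
Gpx4: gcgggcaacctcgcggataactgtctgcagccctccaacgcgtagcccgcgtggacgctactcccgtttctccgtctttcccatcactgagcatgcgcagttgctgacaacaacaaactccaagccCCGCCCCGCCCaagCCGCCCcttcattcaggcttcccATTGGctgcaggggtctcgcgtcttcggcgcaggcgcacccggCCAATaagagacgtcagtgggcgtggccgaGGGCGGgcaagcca
Gstm1: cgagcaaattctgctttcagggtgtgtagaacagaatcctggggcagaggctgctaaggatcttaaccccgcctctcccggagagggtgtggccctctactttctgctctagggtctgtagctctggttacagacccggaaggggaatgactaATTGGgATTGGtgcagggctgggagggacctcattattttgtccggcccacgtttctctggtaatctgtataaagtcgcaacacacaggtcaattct

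The values are counts of UMIs (unique molecular identifiers, tags that let each captured molecule be counted once) for every gene in every cell barcode. The WT library kept 1961 cells with 33814309 UMIs and the Nuc1 library 1780 cells with 34644332 UMIs, and 2 barcodes occurred in both libraries. Levels are UMIs summed over the cells of a group, per 1000000 UMIs of those cells (CPM). All intervals are exact 95% intervals that cover counting error only, and since each genotype is 1 library, no difference between WT and Nuc1 could be set against a spread of replicates or tested. The cells fell into 10 clusters. Clusters 0, 1, 2, 4 and 5 were rich in collagen transcripts, and cluster 5 of these was led by genes of dividing cells (Ube2c, Top2a). Cluster 3 was astrocyte-like (Gfap, Hspb1, Fabp7 and Aqp4 among its 10 leading genes), cluster 7 oligodendrocyte-lineage-like (Bcas1, Olig1, Cnp) and cluster 9 macrophage-or-microglia-like (Pf4, Tyrobp, Cd68, C1qb). Dynlrb2, Cfap126 and other genes of motile cilia led cluster 6, and Ttr and Gldn led cluster 8, and these groups keep their numbers here. The libraries differed in their cell mix. Of astrocyte-like cells WT gave 105 and Nuc1 349, cells of cluster 6 were 15 and 105, and cells of cluster 4, led by Inmt and Cyp26b1, were 53 and 368. The macrophage-or-microglia-like cells stood apart: the 22 Nuc1 cells had a median of 1807.5 UMIs with 0.266% mitochondrial UMIs, against 8493 UMIs and 6.22% in the 23 WT cells. Clusters were made from these same cells, so levels by cluster are a description.

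Of the superoxide dismutases, the cytosolic enzyme gene Sod1 was read in all clusters within a narrow range, and the gene of the secreted enzyme, Sod3, was concentrated in few of them. Over both libraries, Sod1 ran from 133 CPM in cluster 7 to 366 in cluster 6. Cluster 6 and cluster 8 (359 CPM) had overlapping intervals, and cluster 8 was 1.54-fold above the next, cluster 4. Sod3 was highest in cluster 4, at 69.1 CPM, followed by cluster 8 at 44.0, cluster 6 at 12.9 and astrocyte-like cells at 11.5. The lead of cluster 4 came from the Nuc1 library (72.7 and 39.7 CPM), since in WT cluster 8 was first at 49.7 and cluster 4 at 40.2, with overlapping intervals. The other collagen-rich clusters lay between 4.19 and 5.95 CPM with overlapping intervals. In cluster 7 Sod3 had 0 UMIs, which allows up to 3.82 CPM for WT and 28.1 CPM for Nuc1. Catalase, the peroxisomal enzyme that splits hydrogen peroxide, was spread more evenly than Sod3. Cat was at 109.9 CPM in astrocyte-like cells, 102 in cluster 4 and 97.9 in cluster 6, with neighbours overlapping, and lowest at 39.3 in cluster 9.

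The 3 glutathione peroxidases were not read highest in the same groups. Gpx1, the general cytosolic form, was highest in macrophage-or-microglia-like cells at 1653 CPM, 2.08-fold above cluster 8 (796 CPM). This rank held in WT (1957 CPM), while in Nuc1 cluster 8 was first at 857 CPM and cluster 9 the third at 711. Astrocyte-like cells followed at 773 CPM, and cluster 7 was lowest at 124, 3.76-fold below the collagen-rich cluster 4. Gpx4, which reduces lipid peroxides in membranes, was highest in cluster 6 at 1527 CPM, before astrocyte-like cells at 1175 and cluster 8 at 1037. Cluster 6 was clear of the next group in each library, and astrocyte-like cells were clear of cluster 8 in WT but not in Nuc1 (1230.4 and 1223 CPM). Dividing cells had the least Gpx4, at 429 CPM. Gpx3, a secreted form, was read mainly in cluster 9 at 223 CPM and in cluster 8 at 141, which was 14.0-fold above the next cluster. In Nuc1 cluster 8 was first at 119 CPM and cluster 9 second at 53.6 on 4 UMIs, with overlapping intervals. Over both libraries, all other clusters were at or below 10.1 CPM. Within a library, cluster 7 reached 28.1 CPM in Nuc1, on 3 UMIs, and astrocyte-like cells 17.6 in WT. The part of free RNA in those low values was not tested.

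Of the peroxiredoxins, which reduce peroxides through a reactive cysteine, Prdx1 was highest in cluster 6 at 1598 CPM, 1.71-fold above cluster 4 (932). Over both libraries, cluster 4, astrocyte-like cells (927) and cluster 9 (921) had overlapping intervals, and cluster 0 was lowest at 495. In WT cluster 4 was at 654 CPM, under cluster 9 (881), astrocyte-like cells (819) and cluster 8 (725). In Nuc1 it was at 966 CPM, beside 1046 in cluster 9 and 960.3 in astrocyte-like cells. Prdx6, which also has phospholipase activity, followed another order. It was highest in cluster 8 at 655 CPM and in astrocyte-like cells at 427, and lowest in cluster 7 at 78.4. Both leading groups were clear of their neighbours in WT (1029 and 606 CPM), but in Nuc1 astrocyte-like cells (371), cluster 8 (368) and cluster 9 (308) had overlapping intervals. Gstm1, a glutathione S-transferase of the mu class, had the steepest order of the conjugating enzymes. Cluster 6 was at 2203 CPM, 2.57-fold above astrocyte-like cells (857), which were 2.23-fold above cluster 8 (385). The collagen-rich clusters lay between 45.7 and 63.5 CPM and cluster 7 at 22.4. Nqo1 was highest in the same 3 groups, at 327 CPM in cluster 6, 298 in astrocyte-like cells and 294 in cluster 8 over both libraries. Within a library they were not alike: cluster 8 was clear above astrocyte-like cells in WT (431 and 237 CPM) and clear below them in Nuc1 (189 and 317 CPM). Nqo1 was nearly absent from cluster 7, at 4.48 CPM or 4 UMIs. Other mu-class genes are near copies that can share reads with Gstm1. In all cells, Gstm2 was at 66.7 CPM in WT and 91.4 in Nuc1 and Gstm4 at 31.6 and 31.7, while Gstm3 had 0 UMIs.

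**Figure D1:**
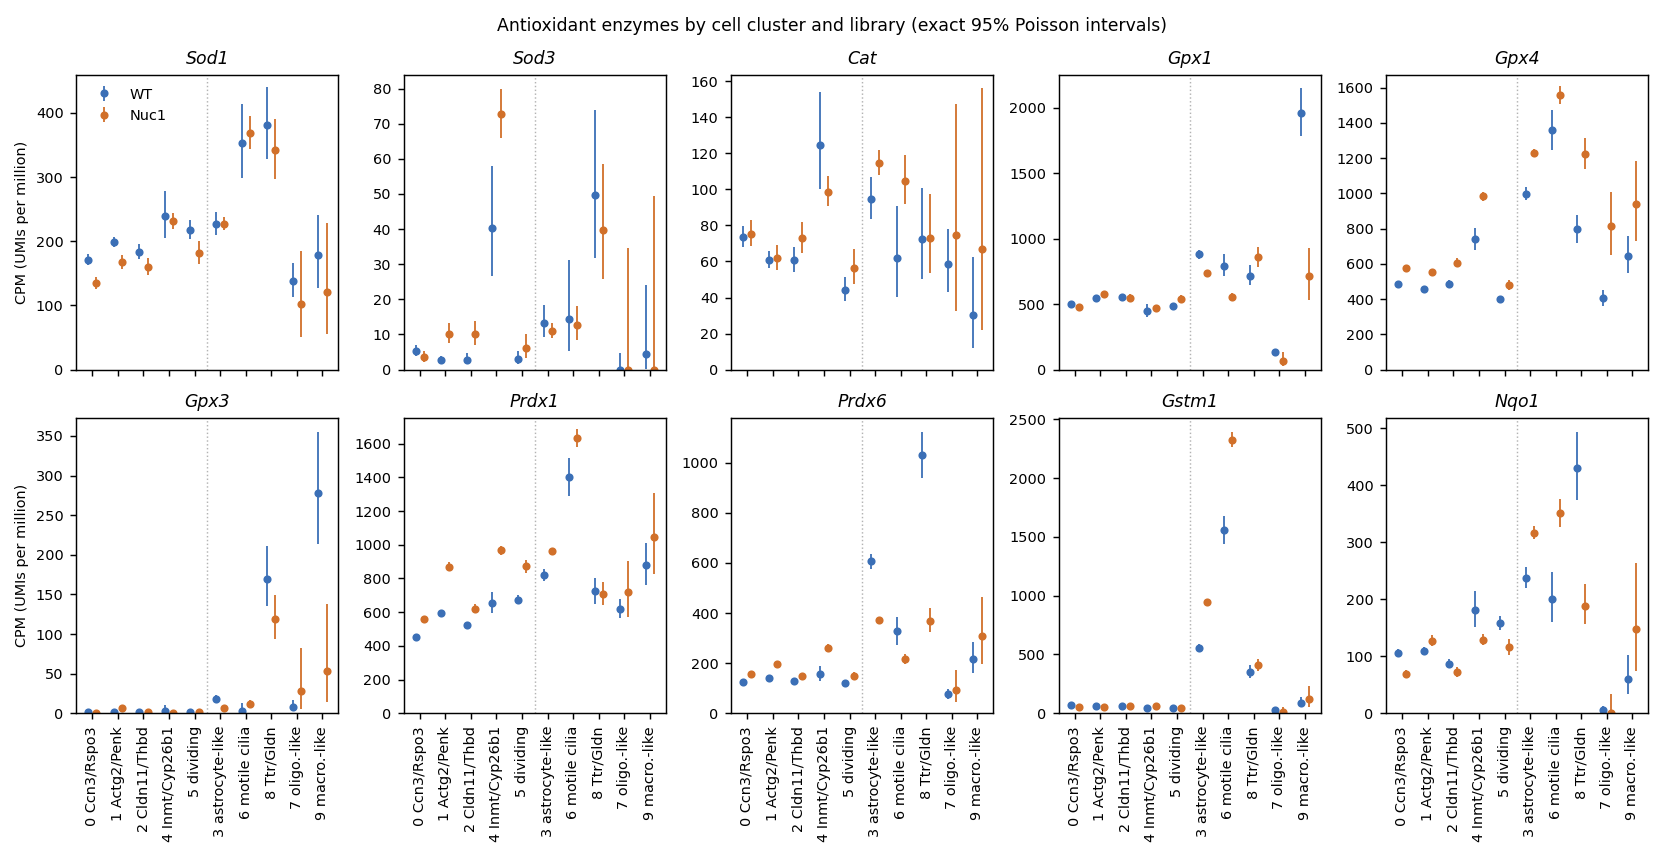
Level of each of the 10 genes, in CPM on a linear axis from 0, in each of 10 cell clusters (collagen-rich clusters left of the dotted line), with blue points for the WT and orange points for the Nuc1 library and exact 95% Poisson intervals. Gstm1 stands out in cluster 6 and in astrocyte-like cells, Gpx3 in clusters 8 and 9, and Sod3 in clusters 4 and 8.

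Set against the collagen-rich clusters together, 5 of the 10 genes were at least 1.5-fold higher in astrocyte-like cells of both libraries with intervals clear of equality, beside 15.9% of 11290 genes that met the same rule. They were Gpx4 (2.13-fold in WT and 1.84-fold in Nuc1), Gpx3 (12.9 and 3.26), Prdx6 (4.61 and 1.95), Gstm1 (8.87 and 17.1) and Nqo1 (2.11 and 3.09). None of the 10 was lower by the rule, beside 22.1% of all genes. Sod3 changed direction, at 3.02-fold the collagen-rich level in WT and 0.462-fold in Nuc1, both intervals clear of equality. That collagen-rich level was itself 4.40 CPM in WT and 23.7 in Nuc1. In cluster 6, Sod1, Gpx4, Prdx1, Gstm1 and Nqo1 were higher, 5 of 10 beside 18.2%, with Gstm1 at 24.7-fold in WT and 41.8-fold in Nuc1. In cluster 8 this held for 7 of 10 beside 9.3%, all but Cat, Gpx1 and Prdx1. Oligodendrocyte-lineage-like cells went the other way. Gpx1, Prdx6, Gstm1 and Nqo1 were lower there in both libraries, 4 of 10 beside 6.29%, and Gpx3 alone was higher, 1 of 10 beside 11.1%, on 6 WT and 3 Nuc1 UMIs. The 10 Nuc1 cells of that cluster held 7 UMIs of Gpx1, 10 of Prdx6, 1 of Gstm1 and 0 of Nqo1. Only 1593 genes reached 100 UMIs in the cluster, so most of the 11290 had few counts with which to meet the rule. In macrophage-or-microglia-like cells Gpx3 and Prdx6 were higher, 2 of 10 beside 2.12%, on 4 and 23 Nuc1 UMIs. The Nuc1 cells of that cluster held only 74559 UMIs, and 379 genes reached 100 UMIs in the cluster. Most of the 11290 genes had few counts there with which to meet the rule. Only WT cells of that cluster had Gpx1 at least 1.5-fold higher, at 3.73-fold, against 1.38-fold in the Nuc1 cells.

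Over all cells kept, 3 of the 10 genes were at least 1.5-fold higher in the Nuc1 library and none was lower, beside 14.1% of 11290 genes higher and 10.6% lower. Gstm1 went from 125 CPM in WT to 439 in Nuc1, a log2 ratio of 1.81 (1.76 to 1.86). Sod3 rested on fewer molecules, 196 UMIs in WT and 689 in Nuc1, at 5.80 and 19.9 CPM and a log2 ratio of 1.78 (1.55 to 2.02). Gpx4 went from 527 to 881 CPM, 0.74 (0.71 to 0.77). Of the others, Prdx1 (590.3 and 876 CPM, log2 ratio 0.57), Nqo1 (126 and 175, 0.48), Cat (66.3 and 87.7, 0.40), Prdx6 (185 and 241, 0.38) and Gpx1 (560.1 and 582, 0.05) had intervals above 0 and did not reach 1.5-fold. The intervals of Sod1 (198 and 204 CPM, 0.05) and Gpx3 (7.13 and 6.21, −0.20) included 0. The median log2 ratio of the 10 was 0.44, beside −0.0054 over all genes. In such sums more cells of a type and more RNA per cell cannot be told apart.

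The sources of these molecules differed between the libraries. Of the Gstm1 UMIs, astrocyte-like cells held 36.5% in WT and 55.9% in Nuc1, cluster 6 held 15.4% and 34.0%, and the collagen-rich clusters 43.2% and 8.29%. Of the Sod3 UMIs, cluster 4 held 14.3% in WT and 60.2% in Nuc1. Levels were therefore also set at 1 common cell mix, in which each cluster has the same weight in both libraries. There 1 of 10 genes was at least 1.5-fold higher in Nuc1, beside 6.54% of all genes, and 1 was lower, beside 8.84%. Sod3 was higher, at 9.95 CPM in WT and 15.4 in Nuc1 (log2 ratio 0.62, 0.33 to 0.92), and Gpx3 was lower, at 9.34 and 5.86 CPM (−0.67, −1.005 to −0.34). Gpx3 has 64 of its 241 WT UMIs in the 23 cells of cluster 9, the cluster whose Nuc1 cells stood apart. The ratio of Gstm1 was 0.48 (0.42 to 0.53), of Prdx1 0.37 (0.34 to 0.40) and of Gpx4 0.32 (0.28 to 0.35), all above 0 and under 1.5-fold. Sod1 (−0.18) and Gpx1 (−0.09) had intervals below 0. For Cat (0.09), Prdx6 (−0.02) and Nqo1 (−0.05) the interval included 0. With only the 6 clusters of at least 50 cells in each library, a choice made after the data were seen, Sod3 was at 0.72 and called and Gpx3 at −0.33 and not called. Sod3 fell under 1.5-fold without integration (0.45), with equal cluster weights (0.29) and with each cell thinned to 5000 UMIs (0.54), and was at 0.03 on the scale of mean log values.

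**Figure D2:**
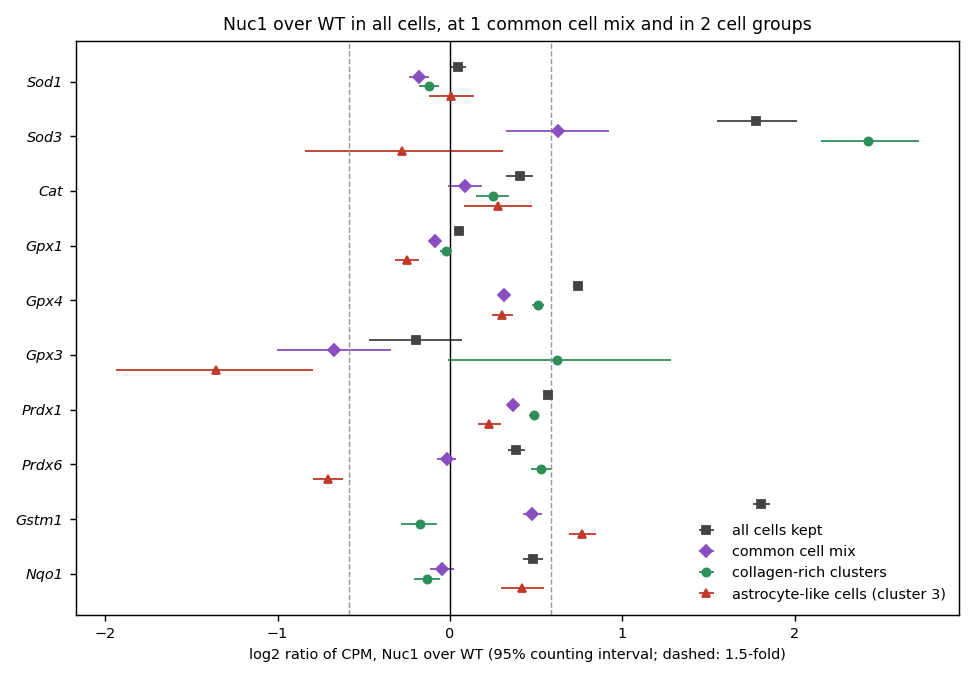
Log2 ratio of CPM, Nuc1 over WT, of each gene with its 95% counting interval, for all cells kept (squares), the common cell mix (diamonds), collagen-rich clusters (circles) and astrocyte-like cells (triangles); dashed lines mark 1.5-fold. The square of Gstm1 lies at 1.81 and its diamond at 0.48, and the circle and the triangle of Prdx6 lie on opposite sides of 0.

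Within astrocyte-like cells, Gstm1 was higher in the Nuc1 library and Prdx6 and Gpx3 were lower. At 1.5-fold this was 1 of 10 genes higher, beside 5.8% of 7585 genes, and 2 lower, beside 11.8%. Gstm1 was at 558 CPM in WT and 950.1 in Nuc1, a log2 ratio of 0.77 (0.69 to 0.85). Prdx6 was at 606 and 371 CPM, −0.71 (−0.79 to −0.62). Gpx3 rested on 49 and 61 UMIs, 17.6 and 6.82 CPM, −1.36 (−1.94 to −0.80), and the 5 richest WT cells held 61.2% of the WT count. The remaining genes were closer to equality. Nqo1 was at 237 and 317 CPM (0.42, 0.30 to 0.54), Gpx4 at 998 and 1230.4 (0.30, 0.24 to 0.36), Cat at 94.7 and 115 (0.28, 0.08 to 0.48) and Prdx1 at 819 and 960.3 (0.23, 0.16 to 0.30). Gpx1 was at 880.2 and 740.3 CPM, with an interval below 0 (−0.25, −0.32 to −0.18). For Sod1 (226 and 227 CPM, 0.01) and Sod3 (13.3 and 11.0 CPM, −0.28) the interval included 0. The median over the 7585 genes was −0.11 in these cells. Relative to it the ratio of Gstm1 was 0.88, of Prdx6 −0.60, of Gpx1 −0.14 and of Sod1 0.12.

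Both differences ran through the cells and did not rest on a few of them. The median WT cell held 440.4 CPM of Gstm1 (quartiles 241 and 621) and the median Nuc1 cell 785 (509 and 1178). For Prdx6 the medians were 504 in WT (358 and 809) and 331 in Nuc1 cells (232 and 476). Without the richest cell of each library the log2 ratios were 0.83 for Gstm1 and −0.70 for Prdx6. Other values moved with the genotype in these cells. The motile cilia markers summed to 66.6 CPM in WT and 175 in Nuc1, fibroblast markers to 509 and 425, and the median mitochondrial share was 13.0% and 10.9%. Without cells over 300 CPM of either marker set, chosen after the data were seen, 82 WT and 252 Nuc1 cells gave 0.91 for Gstm1, −0.66 for Prdx6 and −1.72 for Gpx3. With at most 10% mitochondrial UMIs, which left 27 WT and 176 Nuc1 cells, 5 genes were called, and Nqo1 came to 0.02. The share of all genes called at that limit was not computed. The cells were also clustered anew there, so the limit, the new clusters and the fewer WT cells cannot be told apart. The part of cell quality in the Nqo1 value was not tested.

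**Figure D3:**
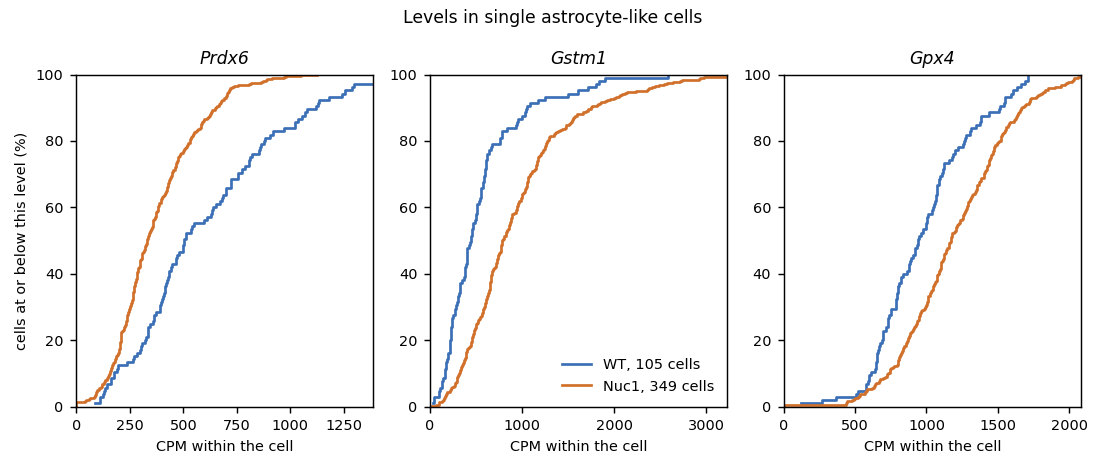
Percent of astrocyte-like cells (vertical axis) at or below a level in CPM within the cell (horizontal axis) for Prdx6, Gstm1 and Gpx4, with 105 WT cells in blue and 349 Nuc1 cells in orange. The Nuc1 curve lies left of the WT curve for Prdx6 (medians 331 and 504) and right of it for Gstm1 (785 and 440.4).

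In the collagen-rich clusters together, Sod3 alone was called, 1 of the 9 genes with at least 100 UMIs there, beside 9.24% of 10340 genes higher and 8.74% lower. It was at 4.40 CPM in WT and 23.7 in Nuc1, a log2 ratio of 2.43 (2.15 to 2.72). Most of the Nuc1 count came from cluster 4, in which Sod3 was at 40.2 CPM in the 53 WT cells and 72.7 in the 368 Nuc1 cells (0.85, 0.30 to 1.46). With Prdx6 it made 2 of 9 genes called higher in that cluster, beside 11.9% of 6457 genes. Sod3 was also higher in Nuc1 cells of cluster 1 (2.60 and 10.03 CPM, 1.92, 1.26 to 2.67) and cluster 2 (2.82 and 10.05, 1.79, 0.92 to 2.83), on under 100 UMIs each. In clusters 0 (5.24 and 3.46 CPM) and 5 (3.08 and 6.05) the interval included 0. Prdx6 was higher in the Nuc1 cells of these clusters, at 131 and 189.8 CPM (0.53, 0.47 to 0.59), as were Gpx4 (468 and 668, 0.51) and Prdx1 (551 and 774, 0.49). Gstm1 was lower, at 62.8 and 55.6 CPM (−0.18, −0.28 to −0.07), as were Nqo1 (113 and 103, −0.13) and Sod1 (191 and 176, −0.12). These sums weigh the collagen-rich clusters differently in each library, and single clusters differed from them. Gpx4 ran from 0.25 in cluster 0 to 0.41 in cluster 4, under its summed value, and Prdx1 from 0.25 in cluster 2 to 0.56 in cluster 4. Gstm1 ran from −0.38 in cluster 1 to 0.49 in cluster 4, where the interval included 0 (−0.04 to 1.07). Nqo1 ran from −0.60 in cluster 0 to 0.22 in cluster 1, where 1 Nuc1 cell held 138 of its UMIs. Without the richest cell of each library that value was −0.10 (−0.25 to 0.06). Cat was at 64.0 and 76.0 CPM (0.25, 0.15 to 0.34), and for Gpx1 (524 and 516, −0.02) and Gpx3 (1.34 and 2.07, 0.62, on 39 and 47 UMIs) the interval included 0. Fibroblast markers summed to 11096 CPM in WT and 5451 in Nuc1 cells of cluster 0, and their part in these ratios was not tested.

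Taken cluster by cluster, Gpx4 kept one direction, Prdx1 and Cat did so in 9 of 10 clusters, and Prdx6 split. Gpx4 was higher in the Nuc1 cells of 10 of 10 clusters with every interval above 0, from 0.20 in cluster 6 to 0.999 in cluster 7, beside 4.24% of the 1650 genes with at least 20 UMIs in each cluster that were higher in every one. Prdx1 was higher in 9 of 10, with 7 intervals above 0 and cluster 8 at −0.03, beside 12.5% of these genes higher in at least 9. Cat was also higher in 9 of 10, with 4 intervals above 0 and 0 below, and cluster 4 at −0.34. With 7 WT and 5 Nuc1 UMIs in cluster 9, Cat is not among the 1650 genes. Clusters of a library share its preparation and are not replicates. In cluster 6 Cat and Nqo1 were called higher and Prdx6 lower among 8 genes, beside 9.74% and 9.34% of all genes. In cluster 8 Gpx4 was called higher and Prdx6 and Nqo1 lower among 8, beside 7.3% and 13.8%, and in cluster 9 Gpx1 lower among 3, beside 29.8% of only 379 genes. In cluster 7 Gpx4 was called higher and Gpx1 lower among 4, beside 9.98% and 14.4%. That cluster had only 10 Nuc1 cells, with 106793 UMIs. Gpx1 had 104 WT UMIs there, 40 of them in 1 cell, and 7 Nuc1 UMIs, and its interval included 0 (−2.36 to 0.08). In cluster 0 Nqo1 was called lower among 8 (105 and 69.5 CPM, −0.60), beside 10.6%. Sod1 was lower in 8 of 10 clusters, with 4 intervals below 0 and none above, and the share of all genes lower in that many was not computed. Prdx6 was higher in the Nuc1 cells of all 5 collagen-rich clusters, from 0.20 in cluster 2 to 0.74 in cluster 4, and lower in 3 of the other clusters, and in clusters 7 and 9 the interval included 0. In cluster 8 it was at 1029 CPM over 23 WT cells and 368 over 31 Nuc1 cells (log2 ratio −1.48, −1.71 to −1.25), and in cluster 6 at 327 and 216 CPM, −0.60 (−0.88 to −0.31). Gstm1 was higher in cluster 6 as in astrocyte-like cells, at 1554 and 2325 CPM (0.58, 0.46 to 0.70). Nqo1 was higher in cluster 6 (200.3 and 351 CPM, 0.81) and lower in cluster 8 (431 and 189, −1.18). In macrophage-or-microglia-like cells Gpx1 was at 1957 CPM in WT and 711 in Nuc1 (−1.46, −1.90 to −1.05), while the macrophage markers of these cells summed to 27683 and 10649 CPM.

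**Figure D4:**
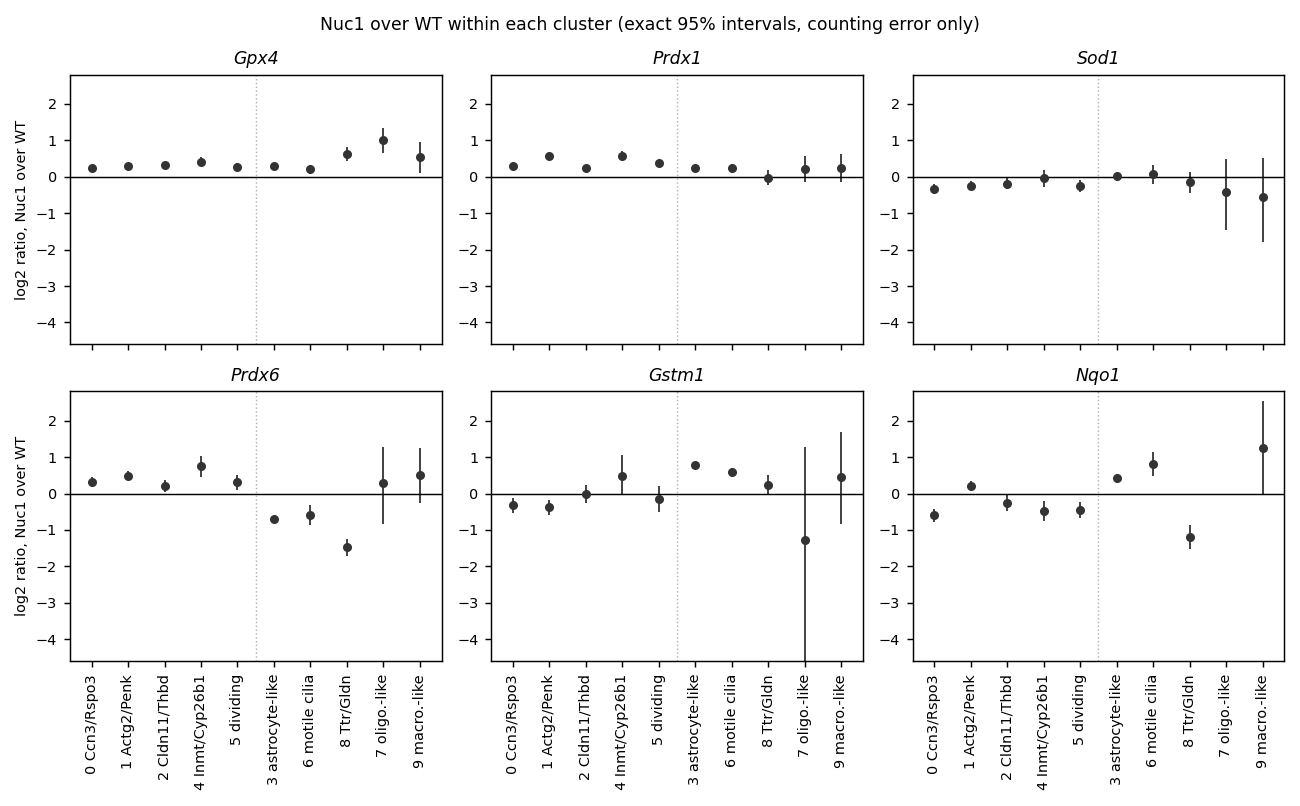
Log2 ratio of CPM, Nuc1 over WT, within each of 10 clusters for Gpx4, Prdx1, Sod1, Prdx6, Gstm1 and Nqo1, with exact 95% intervals (collagen-rich clusters left of the dotted line); Nqo1 in cluster 7, with 0 UMIs in Nuc1 cells, is left out, and the lower end of the Gstm1 interval in cluster 7 runs off the axis. All 10 Gpx4 points lie above 0, and the Prdx6 points of clusters 3, 6 and 8 lie below 0 while those of the collagen-rich clusters lie above it.

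The other genes of the pathway were read from lists. Over all cells, glutathione synthesis and use had 8 of 19 genes at least 1.5-fold higher in Nuc1 and 2 lower, with a median log2 ratio of 0.26 beside −0.0054 over all genes. For this and the lists that follow, the shares of all genes called were 14.1% higher and 10.6% lower. Slc7a11, the cystine importer (15.0 and 40.7 CPM, 1.44), and the glutathione transferase genes Mgst1 (27.2 and 69.1, 1.34) and Gstk1 (21.9 and 45.5, 1.06) had the highest ratios, and Gpx7 was among the lower ones (52.3 and 34.4 CPM, −0.60). At the common cell mix 1 of the 19 was higher, Gstt2 (0.72), and 1 lower, beside 6.54% and 8.84% of all genes. The other peroxiredoxins and the thioredoxin system had 0 of 12 called in either direction, with Prdx5 at 0.49 and Txn1 at −0.29. Of the NRF2 regulators, Nfe2l1 was higher (0.85) and the small MAF factors Maff (−1.21) and Mafk (−1.31) were lower among 8, while Nfe2l2, the gene of NRF2 itself, was at 0.10. Other NRF2 targets had 3 of 13 higher: the ferritin heavy chain gene Fth1 (10635 and 34753 CPM, 1.71), Slc7a11 and Osgin1 (0.78). Of 10 selenoprotein genes and genes for their synthesis 1 was lower, Selenom (−0.59). Of 5 superoxide sources, Duox1 was higher (4.05 and 11.1 CPM, 1.45), and Cybb (3.19 and 0.144 CPM, 108 and 5 UMIs) and Rac2 (−2.11), both known from phagocytes, were lower. Over both libraries Duox1 was highest in cluster 4 (47.6 CPM), and Cybb and Rac2 in cluster 9 (367 and 272 CPM). The part of the cell mix in these ratios was not tested. Sod2, the mitochondrial dismutase, and Ccs were not called, at 0.09 and −0.11. At the common cell mix, 0 of 5 superoxide sources were higher and 2 lower, and 1 of 13 other NRF2 targets was higher and 0 lower. There 2 of 8 NRF2 regulators were higher and 2 lower. In the thioredoxin list 1 of 12 was higher and 0 lower, and 0 of 10 selenoprotein genes were called. The shares of all genes at that mix were 6.54% higher and 8.84% lower.

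In astrocyte-like cells the same lists gave other leading genes, and the shares of all genes called there were 5.8% higher and 11.8% lower. Glutathione synthesis and use had 4 of 17 higher and 1 lower, with Gstt2 at 16.2 and 56.5 CPM (1.80), Gstp1 at 257 and 531 (1.04), Mgst2 at 6.12 and 11.5 (0.90) and Gpx7 at 29.5 and 15.0 (−0.97). Slc7a11 and Mgst1, raised over all cells, were at −0.08 and −0.28 here. Txnip, which binds and inhibits thioredoxin, was the 1 gene of 12 called in the thioredoxin list, at 72.7 CPM in WT and 343 in Nuc1 (2.24). Of 7 NRF2 regulators Nfe2l1 was higher (1.33) and Maff (−1.54) and Mafk (−0.79) were lower, and Nfe2l2 was at 0.19. Of 12 other NRF2 targets Fth1 (0.88), Hmox1, the gene of inducible heme oxygenase (85.3 and 137 CPM, 0.68), and Blvrb (0.61) were higher, and Gclc (−0.43) and Txnrd1 (−0.32), 2 further targets, were not called. Selenom (235 and 73.2 CPM, −1.68) and Selenoh (−0.67) were lower of 10 selenoprotein genes. Neither of the 2 superoxide sources with enough UMIs was called. In collagen-rich clusters 6 of 19 glutathione genes were higher and 0 lower, beside 9.24% and 8.74% of all genes, led by Mgst1 (4.94 and 25.2 CPM, 2.35) and Slc7a11 (13.9 and 47.3, 1.77). Over both libraries cluster 4 held 79.1 CPM of Mgst1 and 175 of Slc7a11. The other collagen-rich clusters held at most 7.57 and 22.1 CPM. Cluster 4 had 53 WT and 368 Nuc1 cells, and the part of that shift in these 2 ratios was not tested. Maff (−1.08) and Mafk (−1.48) were lower in the collagen-rich clusters too.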

How the data were processed

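The authors made a single-cell library per genotype with a droplet-based 3′ kit (v3.1), processed the reads with Cell Ranger 3.1.0 and STAR 2.7 per the submitters' processing notes, and deposited raw counts of UMIs per gene and barcode, not normalized. The genome build is not given in the sources used here. Barcodes needed 500 genes or more and no more than 20% of UMIs from the 13 mitochondrial genes. Doublets were called with Scrublet (scanpy 1.11.5, rate set to 2%), which removed 7 of 1968 WT and 13 of 1793 Nuc1 cells, so doublets can remain. The libraries held 34517542 and 35794685 UMIs in 2107 and 1929 barcodes. Cells were log-normalized, integrated on 2000 variable genes and clustered on 30 principal components at resolution 0.5 (Seurat 5.3.0, R 4.3.3, seed 1).

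A cluster was named when at least 3 markers were among its 10 leading genes, and called collagen-rich when 5 fibroblast markers summed to at least 5000 CPM, a limit set after values were seen. Cluster 8, at 2633 CPM, fell under it and held 1.17% of WT and 1.74% of Nuc1 cells. A gene was called with at least 100 UMIs over both libraries and a ratio of at least 1.5-fold. Intervals are exact Poisson for a level and exact conditional for a ratio. Ratios had 0.5 UMIs added to each sum, and a sum of 0 allows up to 3 counts. The common cell mix weighted clusters by their share of all cells of both libraries, and its intervals are approximate.

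All 10 genes are reported in each comparison, list genes at most 3 a direction by size among those called, or as named. The members and lists were chosen with earlier results of these data known. Genes of the pathway named without a call were chosen after their values were seen. Alternatives were other filters, clusterings, cell choices, scalings (edgeR 4.0.16 TMM), thinning to 5000 UMIs per cell, mean log values and cluster weights. The steps were tested on simulated sums.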

Additional observations from a re-analysis of the deposited data

Results flagged for a closer look

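In 3 genes the log2 ratio of Nuc1 over WT differed between astrocyte-like cells and collagen-rich clusters, with intervals on opposite sides of 0. The share of all genes that did so was not computed, so whether 3 is many cannot be told. For Prdx6 it was −0.71 in astrocyte-like and 0.53 in collagen-rich cells, a difference of −1.24 (−1.34 to −1.13). Gstm1 gave 0.77 and −0.18, a difference of 0.95 (0.82 to 1.08), and Nqo1 0.42 and −0.13, a difference of 0.55 (0.41 to 0.70). The intervals cover counting error only, and since each genotype has 1 library, the differences themselves were not tested. The collagen-rich values are sums over clusters whose shares differ between the libraries. Within single collagen-rich clusters Gstm1 ran from −0.38 to 0.49 and Nqo1 from −0.60 to 0.22, while Prdx6 was above 0 in each. The 0.49 of Gstm1 was in cluster 4, on 31 WT UMIs, with an interval that included 0 (−0.04 to 1.07). The 0.22 of Nqo1 was in cluster 1. Without the richest cell of each library these values were 0.68 (0.11 to 1.32) for Gstm1 and −0.10 (−0.25 to 0.06) for Nqo1. With at most 10% mitochondrial UMIs the astrocyte-like value of Nqo1 was 0.02.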

How the results depend on the processing

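No paired analysis was possible because WT and Nuc1 are 1 library each, with no replicate numbers. Among the 540 values of single genes under other settings, 410 stayed within the interval of the reported value and 130 moved outside it, 124 of these in the same direction. The 540 include the mean log values, which lie on another scale than the log2 ratios and their intervals. For them only the direction can be compared, and neither a place inside an interval nor a count of called genes. At the common cell mix, 2 genes were called, and the number fell to 1 without integration, at resolution 0.2, with equal cluster weights and with clusters of at least 50 cells, and to 0 on thinning and with mean log values. In astrocyte-like cells, 3 genes were called, against 5 at a limit of 10% mitochondrial UMIs and 1 with mean log values. In collagen-rich clusters 1 gene was called, and 0 with mean log values. The shares of all genes called were not computed under these other settings, so the counts cannot be set beside them. The causes were not tested. Apart from mean log values, the ratio in astrocyte-like cells ranged over settings from −0.94 to −0.54 for Prdx6, 0.68 to 1.41 for Gstm1, 0.02 to 0.59 for Nqo1 and −2.28 to −1.005 for Gpx3, and Sod1 changed sign (−0.44 to 0.17). Depth limits Sod3 and Gpx3 most: in WT astrocyte-like cells a count of 0 allows up to 1.08 CPM.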

Other observations

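Over 18 points, the clusters of each library with at least 20 cells, the genes whose log2 level (10 CPM added) followed each enzyme most closely were found among 6358 genes. For Gstm1 they were Chi3l1, Paqr7 and Lrriq1 (Pearson r 0.98, 0.97 and 0.96). For Sod3 they were Bambi, Vcam1 and Olfml2b (0.94, 0.90 and 0.87), for Gpx4 Slc27a1, Ech1 and Fxyd1 (0.93, 0.91 and 0.89), for Gpx1 Rnaset2, Il10rb and Dnase2 (0.93, 0.87 and 0.85) and for Prdx6 Synm, Stk38l and Mgst1 (0.92, 0.84 and 0.84). Sod1 was followed by B3galnt1 (0.93), Gpx3 by Brk1 (0.92), Cat by Ppdpf (0.89), Nqo1 by Tmem43 (0.89) and Prdx1 by Acadl (0.88). Among the 10 enzymes themselves the closest pair was Gpx4 and Gstm1 (0.85). The points share libraries, depth and the clustering itself, and the correlations are a description.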
